A study of Mus musculus with 3 samples.

Results

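Wt1 and 5 other genes known from mesothelium and the mesenchyme beneath it, namely Upk3b, Upk1b, Msln, Bnc1 and Tcf21, were followed in RNA of dorsal dermal fibroblast progenitors of the mouse. Members were taken by gene symbol, and all their probes on the array were kept. This gave 6 of the 17849 genes and 9 of the 25697 probes measured. The genes were chosen by their detection and normalized signals in an earlier reading of these same arrays, so their values are given as a description and no test was made on them.

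The cells were cut by laser capture from embryos at embryonic day 12.5 of the genotype Engrailed1Cre/+;R26R/+, in which the Engrailed1 locus drives Cre recombinase and R26R is a Cre reporter at Rosa26. RNA of 5 embryos was pooled, amplified and labelled with biotin, and the pool was read on 3 Illumina MouseRef-8 bead arrays, called arrays 1, 2 and 3 here. The arrays are technical replicates of 1 pool in 1 group, so each SD below is the spread between arrays and carries nothing on differences between embryos, and no contrast between conditions exists. The labels do not say whether the reporter guided the capture.

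Mesothelium is the flat epithelium that lines the body cavities and covers the organs in them, and it arises from the coelomic epithelium of the embryo. It keeps features of both epithelium and mesenchyme, and it can release mesenchymal cells into the tissue below. Wt1, a zinc finger transcription factor named after Wilms' tumour, is active in mesothelium, epicardium, kidney and gonad. Upk3b and Upk1b encode uroplakins, membrane proteins best known from the urothelium of the bladder, Msln encodes the surface glycoprotein mesothelin, and Bnc1 encodes the zinc finger protein basonuclin of stratified epithelia, germ cells and mesothelium. Tcf21 encodes a basic helix-loop-helix factor of the mesenchyme of kidney, lung and epicardium.

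The deposited detection p ranks a probe's signal among the negative control beads of its array. Detection of a probe here means a detection p under 0.01 on each of the 3 arrays, and 1 such probe sufficed for a gene. Signals are normalized signals in arbitrary units as the authors deposited them. They can fall below 0, and the level of 1 gene's probe is not set against that of another gene. By these criteria 4 of the 6 members were detected, Wt1, Upk3b, Upk1b and Bnc1, and Msln and Tcf21 were not. Of all genes on the array 43.6% were detected, and of all probes 37.7%, against 6 of the 9 member probes. A detection p under 0.05 gave 5 members with Tcf21 added (48.5% of all genes) and one under 0.001 gave 3 without Bnc1 (39.7%). Detection on at least 2 arrays gave 4 (47.6% of all genes) and on at least 1 array 5 (51.7%). Requiring every probe of a gene left 3 members, without Upk1b (32.0%). The share of detected genes rose with the number of probes, from 37.5% of genes with 1 probe to 53.6% with 2 and 65.7% with 3. Wt1, Msln, Bnc1 and Tcf21 had 1 probe each, Upk1b had 2 and Upk3b had 3.

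The background of the arrays set the limit for the dim members. The lowest detected signal was 23.1 on array 1, 44.3 on array 2 and 31.2 on array 3, and the arrays detected 44.9%, 39.0% and 41.6% of probes. Array 2 was dimmer before normalization and was stretched by a slope of 2.07, where arrays 1 and 3 had 0.672 and 0.699. As a second background, 1401 probes of olfactory, vomeronasal and taste receptors and beta-defensins, genes of sensory cells and mucosal defence, gave median signals of -2.31, -0.221 and -2.95. All 15 measured genes of a dermal mesenchyme list were detected, where all genes gave 43.6%. With every probe required 12 were detected (32.0% of all genes). Among the 15 were the mesenchymal factor genes Twist1 (2723 ± 146) and Twist2 (2827 ± 181) and the receptor gene Pdgfra (4106 ± 158). Each value here is a mean ± SD over n = 3 arrays. Prrx1, Msx1 and Crabp1 were also among them. En1, the Engrailed1 gene, lay near the lowest detected signals at 47.9, 53.3 and 38.6. Lef1 (66.4 ± 16.6) was detected by 1 of 2 probes.

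The probe for Wt1, the zinc finger transcription factor, read 645 on array 1, 565 on array 2 and 600.3 on array 3. The 3 arrays lay close together, with a mean of 603 ± 39.8 (SD, n = 3), and each was far over its own lowest detected signal, by 27.9, 12.7 and 19.2 times. None of the 1401 chemosensory and beta-defensin probes reached the Wt1 signal on any array. The detection p was 0 on all 3 arrays. The deposited table gave this probe the symbol Wt1 but no chromosome and no definition, so the transcript and strand it reads could not be looked up. That lack was common: 8533 probes had no definition, of which 37.3% were detected, against 37.9% of the others. The Wt1 gene lies on chromosome 2 at 105126529 to 105173614 of GRCm38.p6, and the antisense gene Wt1os beside it had no probe under its name.

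Upk3b, on chromosome 5 at 136038496 to 136044993, was detected by all 3 of its probes. Its brightest probe read 569, 522 and 527 on arrays 1 to 3, a mean of 539.7 ± 25.9 (SD, n = 3). The second read 329, 340 and 373, a mean of 347 ± 23.1. The third lay near background at 46.1, 91.9 and 69.4, with a mean of 69.2 ± 22.9. Probes of 1 gene can bind with different strength or read different transcripts, and which applies here was not tested. All 3 probes had a detection p of 0 on each array, and the third was about 2 times the lowest detected signal throughout (2.00, 2.07 and 2.22 times). Its highest array value was 1.99 times its lowest, and array 2 was the high one.

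Upk1b, the tetraspanin uroplakin, on chromosome 16 at 38773182 to 38800203, was split between its probes. The detected probe read 143, 124 and 153 (mean 140.0 ± 14.7; SD, n = 3), and its detection p was 0 on each array. The other read -14.4, -14.9 and -19.4, and its detection p of 0.982, 0.861 and 0.997 placed it among the lowest control beads. The 2 probes did not overlap on any array, and the detection of Upk1b rests on 1 of them. Such a split was frequent, since 2066 of the 5036 genes with over 1 probe (41.0%) had some but not all probes detected.

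Bnc1, on chromosome 7 at 81966657 to 81992299, was detected at a low level. Its probe read 80.01, 61.7 and 71.9, a mean of 71.2 ± 9.15 (SD, n = 3). Every array lay over its lowest detected signal, by 3.47, 1.39 and 2.30 times, with array 2 the nearest to background. The detection p was 0 on arrays 1 and 3 and 0.00125 on array 2, where 2 of the 1401 background probes read as high or higher.

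The start regions of the detected members Upk3b and Bnc1 differ in G and C content and in the number of CG dinucleotides, and they are shown because both genes gave RNA signal here. Each line gives the 250 bases upstream of the annotated start from RefSeq (GRCm38.p6), 5′ to 3′ on the gene's strand, with CG dinucleotides in capitals. The Upk3b window is chr5:136038246-136038495 on the plus strand and the Bnc1 window chr7:81992300-81992549 on the minus strand.
Upk3b: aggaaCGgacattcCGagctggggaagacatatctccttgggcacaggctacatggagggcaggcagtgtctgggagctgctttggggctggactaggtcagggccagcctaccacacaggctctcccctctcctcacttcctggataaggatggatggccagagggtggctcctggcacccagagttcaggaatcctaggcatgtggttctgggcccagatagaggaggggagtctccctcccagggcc
Bnc1: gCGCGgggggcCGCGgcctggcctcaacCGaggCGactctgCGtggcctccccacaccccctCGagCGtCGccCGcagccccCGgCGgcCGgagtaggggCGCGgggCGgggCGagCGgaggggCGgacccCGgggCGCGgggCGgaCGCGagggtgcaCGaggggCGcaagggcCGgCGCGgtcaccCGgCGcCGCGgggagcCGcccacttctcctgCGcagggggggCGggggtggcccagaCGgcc
The Upk3b window held 2 CG dinucleotides and 60.8% G and C, and the Bnc1 window 39 and 83.6%. Over 32851 upstream windows of the same table the median was 6 CG dinucleotides, and 1.56% held at least as many as Bnc1, while 81.2% held at least as many as Upk3b. The window of Tcf21, which was not detected, had 5. The letters GNGTGGGNG, a form of the site bound by Wt1 and Egr proteins, were in none of these 3 windows on either strand and in 12.7% of all windows. The arrays measured RNA and not the use of these sequences.

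Msln and Tcf21 lay at or near the edge of detection. The Msln probe, for a gene on chromosome 17 at 25748613 to 25754378, read 4.86, 44.3 and 3.53. Array 2 alone was high and the other arrays were close to 0. Its detection p was 0.178, 0.01003 and 0.213, so array 2 missed the threshold by the smallest step of the ranking while the others were well inside background. Before normalization the same probe read 92.4, 94.9 and 95.9, nearly level, and the lowest detected signals on that scale were 119, 94.9 and 136. The Tcf21 probe, for a gene on chromosome 10 at 22817263 to 22820143, read 27.2, 35.9 and 23.9, with a detection p of 0.00376, 0.0238 and 0.0175. It passed the threshold on array 1 only, and at 35.9 its highest signal stood on the array with the highest background. At a detection p under 0.05 Tcf21 was detected on all 3 arrays. Neither reading shows that the transcript was absent.

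**Figure D1:**
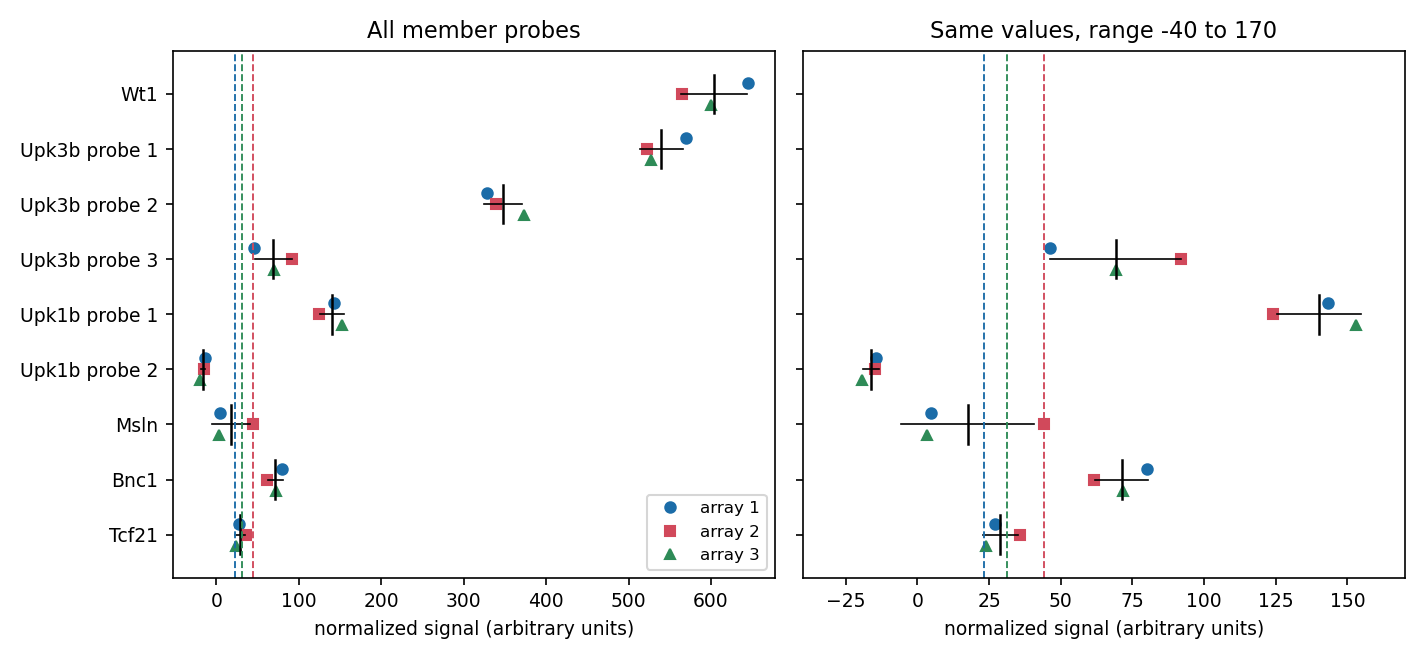
Normalized signal (arbitrary units) of the 9 member probes on 3 technical arrays; points are arrays, vertical bars the mean, horizontal bars the SD, and dashed lines the lowest detected signal of the array in the same colour. Wt1 (565 to 645) and the brightest Upk3b probe (522 to 569) lie far to the right of the dashed lines, whereas Msln, Tcf21 and 1 Upk1b probe lie at or to the left of them on most arrays.

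**Figure D2:**
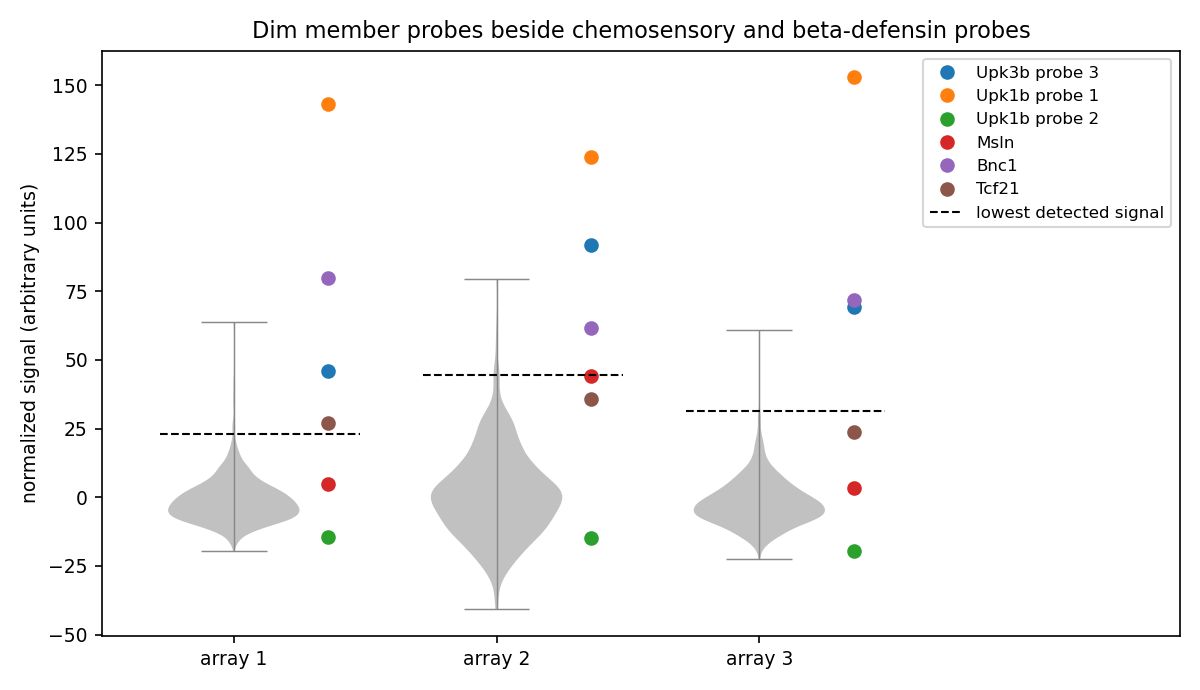
Normalized signal (arbitrary units) of member probes with a mean under 200 (coloured points) beside 1401 chemosensory and beta-defensin probes (grey distributions with their extremes) on each array; dashed lines mark the lowest detected signal. Bnc1 and the brighter Upk1b probe lie over the dashed line on all 3 arrays, Msln lies just under it on array 2 only, and the grey distribution is widest on array 2.

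The detected members were read about as evenly as other probes of like brightness, apart from 1 Upk3b probe. For each, the SD of log2 signal over the arrays was set beside the median of the 500 detected probes nearest in mean signal. Wt1 had an SD of 0.09 (median of like probes 0.07) and the brightest Upk3b probe 0.07 (0.08). Bnc1 had 0.19 (0.22) and the detected Upk1b probe 0.15 (0.15). The dimmest Upk3b probe had 0.50 against 0.22, and 95.6% of its 500 like probes had a lower SD. On the log2 scale its array 2 value stood 0.70 over the mean of arrays 1 and 3, where Wt1 (-0.14), Upk1b (-0.25) and Bnc1 (-0.30) stood below it.

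**Figure D3:**
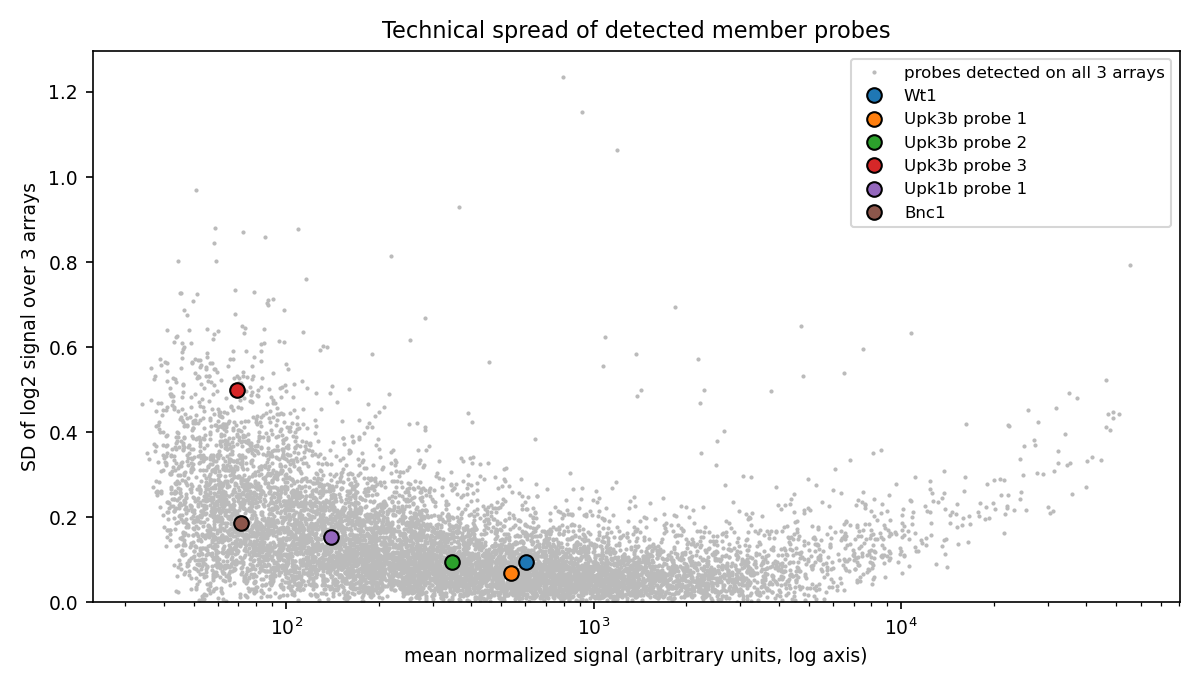
SD of log2 signal over the 3 arrays against mean normalized signal (log axis) for every probe detected on all arrays (grey) and for the 6 detected member probes (coloured). The dimmest Upk3b probe, at 0.50, stands high among probes of like brightness, and the other 5 lie inside the bulk.

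Each member has close relatives on the array, and these were read unevenly. Of 5 measured uroplakin genes only the members Upk3b and Upk1b were detected, a share near the 43.6% of all genes. The plaque partners Upk1a (19.0 ± 11.1), Upk2 (10.4 ± 16.5) and Upk3a (8.02 ± 8.69), which urothelium makes together with Upk1b, were not. Bnc2, the paralog of Bnc1 found in many connective tissue cells, was detected by both of its probes, the brighter at 94.9, 101 and 87.2. None of the 4 measured genes of the mesothelin family was detected, where all genes gave 43.6%. Beside Msln these were Mslnl (5.95 ± 13.3), Strc (-5.88 ± 3.88) and Otoa (12.5 ± 9.45), of which Strc and Otoa are known from the inner ear. Muc16, listed with this family, had no probe under its name.

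Basic helix-loop-helix relatives of Tcf21 and the E proteins with which they pair were counted by symbol. By symbol 8 of 12 measured genes were detected, where all genes gave 43.6%. Tcf21 is counted among the 12, and Tcf3, whose probe is uncertain as given below, among the 8. Msc, its closest relative and a factor of facial and body muscle precursors, read 360.0, 351 and 371. The tendon factor Scx lay at 322 ± 22.6, the somite factor Tcf15 at 73.1 ± 9.43 (SD, n = 3), and both Twist genes were bright, as given above. The E protein genes Tcf4 (6543 ± 364) and Tcf12 (412 ± 10.3) were detected, although 1 of 3 Tcf12 probes was not. Under the symbol Tcf3, 1 of 2 probes was detected (519 ± 10.6). Its deposited annotation places that probe on chromosome 6, and the symbol Tcf3 has also been used for another gene. Whether the probe reads the E protein gene was not tested. Tcf23 (-8.09 ± 19.6) and the heart and limb factor genes Hand1 (-14.8 ± 7.54) and Hand2 (3.76 ± 5.78) were not detected.

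Further genes reported in mesothelium were detected at 5 of 10, near the 43.6% of all genes. These were Gpm6a (366 ± 40.5), a membrane glycoprotein gene also strong in neurons, the Wnt enhancer gene Rspo1 (83.0 ± 4.48), Calb2 (132 ± 9.47), which encodes calretinin, Cldn15 (48.7 ± 15.5) and Clu (233 ± 19.2). Gpm6a and Cldn15 were detected by 1 of 3 probes each and Calb2 by 1 of 2, and 2 of the 10 had every probe detected, against 32.0% of all genes. Lrrn4, a mesothelial membrane protein gene, passed on 2 arrays (46.5, 69.9 and 30.4). Nkain4 (13.6 ± 5.89), Slpi (9.71 ± 6.42), Itln1 (-6.43 ± 3.82) and Efemp1 (14.9 ± 5.71) were not detected. Muc16 and Prg4, also listed, had no probe under their names. Genes that mesothelium shares with other epithelia and vessels were detected at 8 of 9, with Krt7 (99.8 ± 14.5), Krt8 (165 ± 25.1), Krt18 (53.8 ± 4.87), Ezr (124 ± 18.4), Pdpn (2536 ± 152), Podxl (119 ± 29.3), Cdh1 (156 ± 7.37) and Cdh3 (343 ± 22.7). Krt19, a keratin of mesothelium and simple epithelia, was not (12.2 ± 2.93). Cdh3 was detected by 2 of 4 probes, and 7 of the 9 genes had every probe detected. Epidermal genes were read in the same RNA, among them Trp63 (306 ± 22.0), Krt15 (287 ± 13.1) and Krt5 (72.2 ± 8.97), and the part of epidermis in the keratin and cadherin signals, or in Bnc1, was not tested. In a pool of captured cells, a few cells with much of a transcript and many cells with little of it cannot be told apart.

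Other tissues in which Wt1 is active were represented to different degrees. Epicardium and lateral mesoderm genes were detected at 7 of 14, also near the 43.6% of all genes, among them Gata6 (1739 ± 98.99), Scx, the retinaldehyde dehydrogenase genes Aldh1a1 (284 ± 14.7) and Aldh1a2 (69.3 ± 15.8), Tbx18 (99.3 ± 19.3), Nr2f2 (262 ± 7.13) and Osr1 (100.4 ± 18.6). Gata4 (6.08 ± 6.46), Gata5 (-3.37 ± 4.90), Sema3d (8.85 ± 5.15) and Hand1 were not. Aldh1a2 was detected by 1 of 2 probes and Nr2f2 by 1 of 3, and 5 of the 14 had every probe detected, against 32.0% of all genes. Kidney genes gave 4 of 17, among them Bmp7 (171 ± 2.83), Sall1 (59.4 ± 8.14) and the podocyte phosphatase gene Ptpro (49.6 ± 11.9). Sall1 and Ptpro were each detected by 1 of 2 probes. The nephron genes Pax2 (-4.05 ± 4.62) and Pax8 (10.4 ± 13.2) were not detected. Gonad genes gave 1 of 13, the Polycomb gene Cbx2 (131 ± 19.6), without the steroidogenic factor gene Nr5a1 (-3.75 ± 2.02), Lhx9 (28.8 ± 9.77), Lhx2 (11.6 ± 10.6) or Amh (-4.62 ± 1.90). Over both lists 5 of 30 genes were detected, where the share over all genes was 43.6%. When detection on at least 1 array sufficed, kidney gave 8 of 17 and gonad 2 of 13, where all genes gave 51.7%.

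Genes tied to the Wt1 protein were read in part. Of 12 genes for proteins that bind Wt1 or the same kind of DNA site, 4 were detected (43.6% over all genes), Wtip (2129 ± 200.4), the corepressor gene Trim28 (3999 ± 154), Ciao1 (105 ± 16.6) and Egr1 (996 ± 21.0). Wtap (3.50 ± 8.64), whose product serves RNA methylation in most cells, Basp1 (3.53 ± 1.10), Pawr (2.14 ± 9.04) and Amer1 (12.0 ± 0.893) were not. Of 18 genes described as direct Wt1 targets in kidney, gonad, epicardium or cell lines, 13 were detected (43.6% over all genes). With every probe required 8 were detected (32.0% over all genes). The 13 included Wnt4 (392 ± 38.3), Podxl, Snai1 (256 ± 11.1, by 1 of 2 probes), Cdh1, Igf1r (55.7 ± 4.42) and Igf2, the last with an uneven 40521, 62103 and 36043. Spry1 (-2.27 ± 17.1), Nr5a1, Amhr2 (15.4 ± 2.03), Areg (4.75 ± 5.35) and Pax2 were not detected. Most of these genes are active in many cell types without Wt1, and with 1 group no relation to the Wt1 level could be measured.

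**Figure D4:**
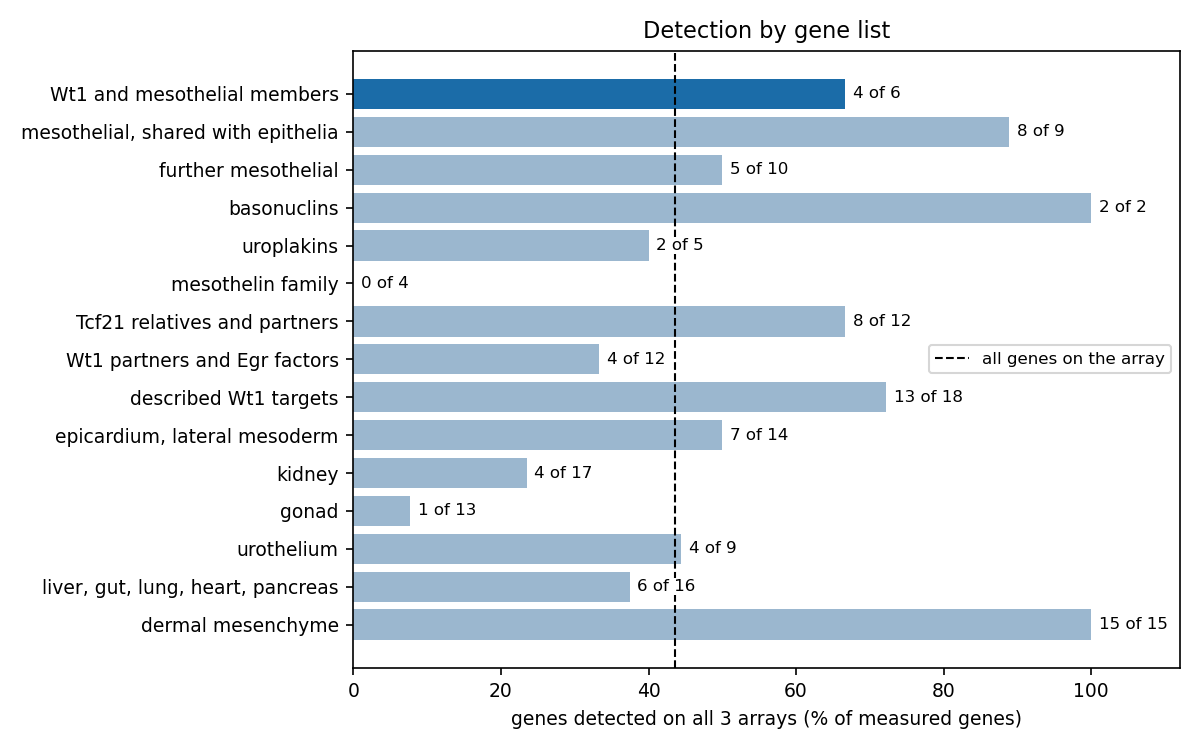
Share of measured genes detected on all 3 arrays (%) for the Wt1 and mesothelial members (dark bar) and for 14 related gene lists (pale bars), with the count beside each bar; some genes belong to several lists. The dashed line is the 43.6% of all genes on the array; members (4 of 6) and dermal mesenchyme (15 of 15) lie to its right, and kidney (4 of 17), gonad (1 of 13) and the mesothelin family (0 of 4) to its left.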

How the data were processed

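Per the file headers, the authors deposited 2 intensity tables for the 3 arrays, 1 normalized and 1 not, each with a detection p-value per probe and array that was equal in both tables. The normalized intensity was a linear rescaling of the non-normalized one, with 1 slope and 1 offset per array, and the authors' series value table was identical to it (linear, not centred, not a ratio), with array medians of 14.9, 21.5 and 15.0. For the normalization method and the scanner software, nothing is given in the sources used here. The detection p-values came in steps of 1 in 798. The number of arrays limits the precision, and whether they shared 1 labelling reaction was not given.

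Symbols were brought up to date with RefSeq (GRCm38.p6): 17548 probes matched by symbol, 1320 by the name in the definition and 5855 by a synonym, and 974 kept the file's name. A gene of a list was valued by its brightest probe, over n = 3 arrays. Members, lists and the rule for named genes were chosen with earlier results of these data known. The rule takes every member probe, all measured genes of the member families, and in each other list the first 6 detected and first 4 undetected genes, or all where a side holds 5 or fewer; genes named beyond it were chosen after their values were seen, and some genes the rule gives are not reported here. No gene was named for a pattern like a member's, because 3 technical arrays of 1 pool hold no biological pattern. No test was made. The counting of detected probes and the SD were tested on simulated data, with present probes set far above background. Calls near the detection threshold were not covered by that simulation. Alternatives covered the detection threshold, the number of arrays, every probe of a gene, each array left out, another background and scaling, and limma 3.58.1 neqc in R 4.3.3; Python 3.11.15 with pandas 2.3.3 did the rest.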

Additional observations from a re-analysis of the deposited data

How the results depend on the processing

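The 4 detected members stayed the same 4 genes without any 1 array (4 in each case), on at least 2 arrays and against the 99th percentile of chemosensory and beta-defensin signals. Bnc1 dropped out at a detection p under 0.001 (3 members), Upk1b when every probe was required (3), and Tcf21 came in at under 0.05 and when 1 array sufficed (5 each). With every probe required, further mesothelial genes gave 2 of 10 and kidney 2 of 17. Uroplakins then gave 1 of 5 and Wt1 targets 8 of 18, where all genes gave 32.0%. With at least 1 array kidney gave 8 of 17 and gonad 2 of 13, where all genes gave 51.7%. Gonad gave 2 of 13 at a detection p under 0.05 (48.5% of all genes). Basonuclins gave 1 of 2 at a detection p under 0.001 (39.7% of all genes). Of 1298 chemosensory and beta-defensin genes 3 were detected, 13 at under 0.05, 1 at under 0.001, 5 on at least 2 arrays, 30 on at least 1 array and 3 to 5 with an array left out, 5 being without array 2. The other 182 of 195 alternative values stayed within 1.5 times for counts, within the SD between arrays for signals, and within their own size for spreads under limma neqc. With an array left out, a signal mean lies within that SD by arithmetic, so the signal limit could not fail there. Without an array the Msln mean ran from 4.19, without array 2, to 24.6, and the dimmest Upk3b probe from 57.8 to 80.7. No paired analysis was possible because there is 1 group.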

Other observations

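Genes of organs that mesothelium covers were detected at 6 of 16 (37.5%), and urothelial and stratified epithelial genes at 4 of 9 (44.4%), both near the 43.6% of all genes on the array. The 2 heart genes among the 6 were read clearly: Nppa, which encodes atrial natriuretic peptide, at 964, 992 and 960.5, and the myosin heavy chain gene Myh6 at 341, 361 and 352 by 1 of its 2 probes, while the cardiac factor gene Nkx2-5 was not detected (15.9 ± 5.49; SD, n = 3). The fetal plasma protein genes Afp (262 ± 21.0), Ttr (242 ± 15.5), Apoa1 (118 ± 11.5) and Apoa2 (123 ± 7.89) made up the other 4, without Alb (1.10 ± 3.74). Genes of gut, lung and pancreas were not detected, with Cdx2 at 5.52 ± 3.03, Vil1 at -6.80 ± 7.32 and Shh at 10.8 ± 2.25. The 4 urothelial and stratified epithelial genes detected were Krt5, Krt15, Trp63 and the tight junction gene Cldn4 (93.6 ± 10.5), without the urothelial keratin gene Krt20 (1.27 ± 8.46), Grhl3 (-5.29 ± 10.3), Foxa1 (-7.05 ± 11.0), Elf3 (28.5 ± 8.66) or Pparg (13.5 ± 5.97).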
